A study of Mus musculus with 12 samples.

Results

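The genes described here encode the tricarboxylic acid (TCA) cycle, the pyruvate dehydrogenase complex that feeds it, and the enzymes that regulate that entry. They were chosen by name: 31 genes were listed, and 30 of them had a probe set assigned to a single gene, the exception being Mpc2, a mitochondrial pyruvate carrier subunit. These 30 stand among 18193 genes tested in all. Expression was measured on 12 arrays of brown adipose tissue, the heat-producing fat, each from 1 male mouse aged 3 months. Of these, 6 ob/ob mice, which lack functional leptin and are obese, had received 1 mg/kg of an antibody that activates FGFR1, a fibroblast growth factor receptor, once into the abdomen and gave tissue on day 4. The other 6 were ob/ob mice that received control IgG, at a dose not given in the sources used here, and were pair-fed, with tissue taken on the same day. Every animal on the arrays was therefore ob/ob, and no lean mouse was among them.

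In the TCA cycle, acetyl-CoA condenses with oxaloacetate to citrate, and successive oxidations return oxaloacetate while supplying electrons to the respiratory chain. Pyruvate enters through the pyruvate dehydrogenase complex, which is switched off when its kinases (Pdk) phosphorylate the E1 component and switched on again when its phosphatases (Pdp) remove that phosphate. Brown fat is rich in mitochondria, burns fatty acids and glucose to make heat, and also draws citrate and NADPH from these reactions for lipid synthesis.

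The tissue label was borne out by its markers. Ucp1, the uncoupling protein of brown adipocytes, ran from 14.49 to 14.61 (median 14.56) on the anti-FGFR1 arrays and from 14.48 to 14.59 (median 14.52) on the control IgG arrays, on the deposited log2 scale whose highest value was 14.9. The mean of 13 brown adipocyte markers ran from 12.1 to 12.3 after anti-FGFR1 and from 11.8 to 12.2 in controls, with 2 called higher, 1 lower and 10 of the 13 above 0 (median 0.11). Their part in the members' differences was not tested. The mean of 10 white fat markers ran from 8.90 to 9.29 after anti-FGFR1 and from 8.96 to 9.26 in controls. Among these 10, 3 were called higher and 2 lower. Fgfr1 itself, the receptor the antibody binds, differed by -0.20 ± 0.09 on the log2 scale and did not pass (limma adjusted p = 0.197). Over all 18193 genes, 535 were called higher and 926 lower (limma, Benjamini-Hochberg adjusted p under 0.05, the call used throughout). Of these calls 63.4% were lower, against 50.9% after a second quantile normalization. Other cell types were also present in the samples. The mean of 15 skeletal muscle markers ran from 6.79 to 11.5 after anti-FGFR1 and from 9.40 to 11.7 in controls, none of the 15 being called by limma (0 at an unadjusted p under 0.05) although 0 of them had a fold change above 0. The mean of 12 macrophage markers ran from 9.66 to 10.1 after anti-FGFR1 and from 9.36 to 10.1 in controls, with 3 called higher. That of 12 endothelial markers ran from 9.33 to 9.55 after anti-FGFR1 and from 9.59 to 9.83 in controls, with 7 called lower and no overlap. The transcript-end ratio, the log2 signal of the 3' minus that of the 5' control probe set averaged over Actb and Gapdh, is a measure of RNA and labelling quality. It averaged 0.203 ± 0.027 on anti-FGFR1 arrays and 0.161 ± 0.031 on control arrays (SD, n = 6 each, exact permutation p = 0.0368, two-sided), a difference that passed without 3 of the 12 arrays in turn and not without the other 9. In such bulk samples a smaller share of a cell type and less RNA per cell cannot be told apart.

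The TCA cycle genes differed little between the groups. Among the 30 measured members, 2 rose (Pdhb and Idh1), 2 fell (Idh2 and Pdp1) and 26 did not pass. The calls amount to 6.67% of members in each direction, against 2.94% of all genes called higher and 5.09% called lower (8.03% in either direction). The fold change was above 0 in 24 of the 30 members (80.0%) and in 53.4% of all genes, with a median of 0.06 on the log2 scale for members and 0.0091 for all genes. Under other settings the count of members above 0 ran from 20 (endothelial mean as covariate) to 26 (skeletal muscle mean as covariate). At an unadjusted p under 0.05 there were 10 of the 30 members and 4081 of all 18193 genes. In 4 members every anti-FGFR1 array lay above every control array (13.3%, against 1.57% of all genes), and in 0 members every anti-FGFR1 array lay below every control (3.55% of all genes).

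On the brightest probe set of each gene, the fold changes of the members lay between -0.23 (Pdp1) and 0.20 (Pdk2) on the log2 scale. Dimmer probe sets of Pdhb (0.49) and Pdp1 (-0.40) lay outside this range. Members varied less within a group than genes in general, with a median within-group SD of 0.0618 against 0.111. Members were also brighter, with a median level of 13.3 against 7.99, and the spread was not compared at equal level. The median half-width of their 95% intervals was 0.0955. Among the 26 members not called, no 95% interval of the brightest probe set reached below -0.175 or above 0.33 on the log2 scale. These bounds correspond to 11.4% lower and 25.7% higher expression. The intervals are not adjusted for the number of genes, and 6 of the 26 excluded 0. Other probe sets of these members could reach further, such as a dimmer one of Pdk1 (0.30, 95% interval 0.06 to 0.53). In level, 23 of the 30 members were brighter than 95% of genes and 17 had a mean above 13, where the highest value in the table was 14.9.

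**Figure D1:**
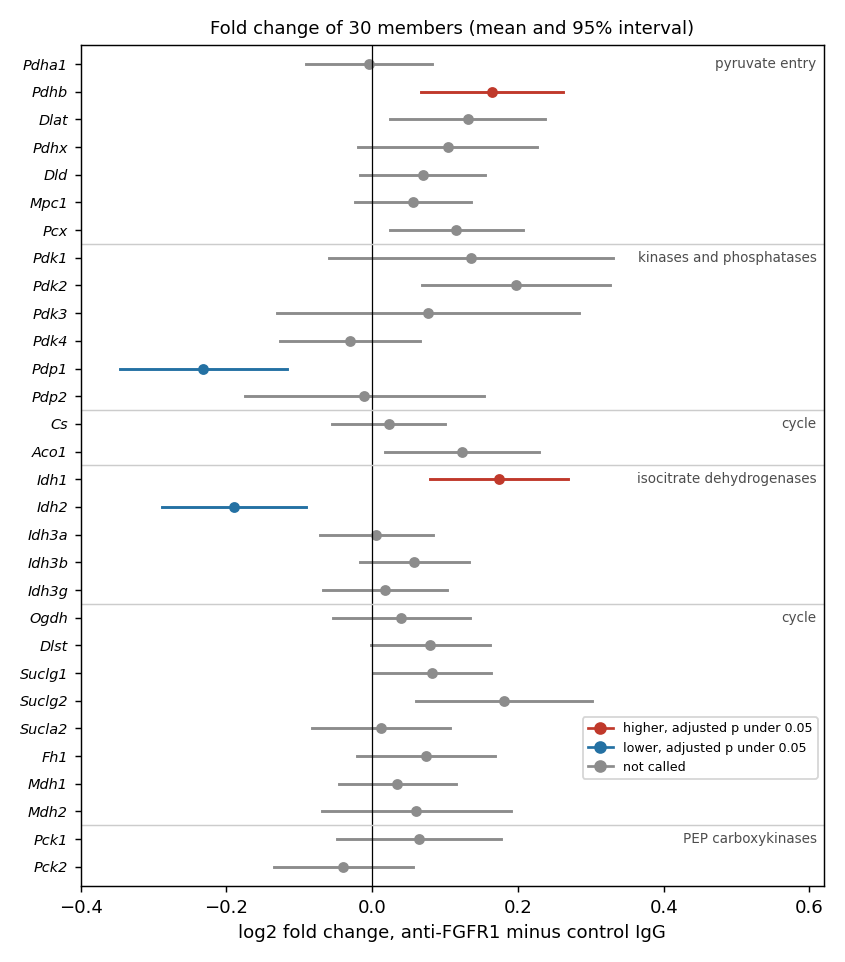
Log2 fold change (anti-FGFR1 minus control IgG, horizontal axis) of the 30 measured members, ordered by role, each with its unadjusted 95% interval from limma. Pdhb and Idh1 are the 2 called rises, Idh2 and Pdp1 the 2 called falls, and the other 26 members are drawn in grey.

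Pdp1 passed the test but had no upstream entry, so it is named only. The upstream regions of Pdhb, Idh1 and Idh2 are shown because these members also passed, the isocitrate dehydrogenases in opposite directions. Each is the stretch of 250 bases before a transcription start in RefSeq, build GRCm38.p6, read 5′ to 3′ on the gene's own strand, which is the minus strand in all 3 genes; 29 of the 31 listed genes had such an entry. For Idh1, which has 2 starts in the table, the more upstream one was taken. The Pdhb window is chr14:8172993-8173242, that of Idh1 chr1:65186480-65186729 and that of Idh2 chr7:80115351-80115600. Capitals mark matches, on either strand, to the GC box, spelled GGGCGG, or to the CCAAT box, spelled as it is named. Also searched were the TATA box, spelled TATAAA, the nuclear receptor half-site, whose letters are AGGTCA, and the ETS core, which reads CCGGAA in this search.
Pdhb: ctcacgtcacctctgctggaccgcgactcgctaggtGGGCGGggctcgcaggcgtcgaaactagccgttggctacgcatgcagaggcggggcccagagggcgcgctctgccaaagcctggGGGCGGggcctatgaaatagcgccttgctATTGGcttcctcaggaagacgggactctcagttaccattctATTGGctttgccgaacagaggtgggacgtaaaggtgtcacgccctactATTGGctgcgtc
Idh1: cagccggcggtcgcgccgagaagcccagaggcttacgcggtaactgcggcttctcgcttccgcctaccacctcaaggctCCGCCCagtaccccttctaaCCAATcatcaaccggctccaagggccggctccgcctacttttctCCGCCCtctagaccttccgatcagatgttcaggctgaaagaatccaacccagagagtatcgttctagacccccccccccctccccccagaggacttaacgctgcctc
Idh2: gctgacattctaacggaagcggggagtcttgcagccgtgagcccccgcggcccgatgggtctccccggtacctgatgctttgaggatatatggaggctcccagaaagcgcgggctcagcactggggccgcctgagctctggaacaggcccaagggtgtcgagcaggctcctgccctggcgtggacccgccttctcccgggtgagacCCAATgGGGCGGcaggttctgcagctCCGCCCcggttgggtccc

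All 3 windows held GC boxes and CCAAT boxes, and the matches did not overlap each other. Pdhb had 2 GC boxes and 3 CCAAT boxes, the last of these ending 8 bases before the start. Idh1 had 2 GC boxes and 1 CCAAT box, and so did Idh2, where all 3 matches lay within 44 bases of the start. The letters of the TATA box, the half-site and the ETS core were not in these windows. Across 32851 windows of the same length, 32.7% held a GC box, 33.8% a CCAAT box, 12.4% the TATA box, 14.0% the half-site and 12.03% the ETS core. The GC content was 61.6% for Pdhb, 61.6% for Idh1 and 67.2% for Idh2, against a median of 52.4%. Pdhb and Idh1, which rose, and Idh2, which fell, held the same 2 of the 5 motifs.

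Among the genes of pyruvate entry, the complex's E1 beta subunit rose, while its partner E1 alpha did not pass. Of 7 measured members 1 rose, 0 fell and 6 did not pass (limma, 3 at an unadjusted p under 0.05), and 6 of the 7 had a fold change above 0. Pdhb, which encodes E1 beta, ran from 13.73 to 13.85 (median 13.77) on the anti-FGFR1 arrays and from 13.49 to 13.72 (median 13.62) on the control arrays. The groups did not overlap. Its level was 12.03% higher, or 0.16 ± 0.05 on the log2 scale (SE; adjusted p = 0.0396 by limma over genes). Adjusted over all 34945 probe sets instead, this brighter probe set did not pass (0.0527). Its second probe set, which was dimmer, showed a larger gap. It ran from 9.68 to 10.07 (median 9.89) after anti-FGFR1 and from 9.24 to 9.49 (median 9.39) in controls, again without overlap, and rose by 0.49 ± 0.07 (limma adjusted p = 0.00044 over 34945 probe sets).

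With 1 array left out at a time, the call on the brighter Pdhb probe set was kept only without control IgG replicate 1 (0.18, limma adjusted p = 0.0207) or anti-FGFR1 replicate 3 (0.17, 0.0497). It was lost without any of the other 10 arrays (0.14 to 0.17, adjusted p from 0.0510 to 0.0886), with the transcript-end ratio as covariate (0.14 ± 0.06, 0.253) and with the skeletal muscle mean as one (0.17, 0.0528). The dimmer probe set passed without each of the 12 arrays in turn and with the transcript-end ratio as covariate (0.50 ± 0.09, adjusted p = 0.0089 by limma), but not with the endothelial mean (0.33 ± 0.11, 0.223).

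Pdha1, which encodes the E1 alpha subunit that carries the regulatory phosphorylation sites, ran from 13.74 to 13.88 (median 13.85) after anti-FGFR1 and from 13.78 to 13.87 (median 13.85) in controls. The groups overlapped, and the difference was -0.0039 ± 0.04 (SE, 95% interval -0.09 to 0.08). Its dimmer probe set was at -0.05. Dlat, the E2 core with acetyltransferase activity, ran from 12.87 to 12.99 (median 12.88) after anti-FGFR1 and from 12.65 to 12.92 (median 12.76) in controls, a difference of 0.13 ± 0.05 that did not pass (limma adjusted p = 0.130); it passed without control IgG replicate 5 (0.16, 0.0473). The other 2 Dlat probe sets were at 0.18 and 0.10. Pdhx, which tethers the E3 component, differed by 0.10 ± 0.06, and Dld, the E3 enzyme shared with the 2-oxoglutarate and branched-chain complexes, by 0.07 ± 0.04.

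Mpc1, a subunit of the carrier that brings pyruvate into mitochondria, differed by 0.06 ± 0.04 and did not pass (95% interval -0.02 to 0.14). Pcx, pyruvate carboxylase, which makes oxaloacetate from pyruvate, ran from 12.20 to 12.39 (median 12.33) after anti-FGFR1 and from 12.15 to 12.24 (median 12.22) in controls. On 5 of 6 anti-FGFR1 arrays it lay above every control, but the difference of 0.12 ± 0.04 did not pass (limma adjusted p = 0.120).

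The regulators of the complex did not move as a group. Of 4 kinases and 2 phosphatases, 0 rose and 1 fell, and 5 did not pass (limma, 2 of the 6 at an unadjusted p under 0.05). The member that fell was Pdp1, a calcium-stimulated phosphatase that activates the complex. It ran from 8.20 to 8.38 (median 8.29) on the anti-FGFR1 arrays and from 8.36 to 8.62 (median 8.51) on the control arrays. On 5 of 6 anti-FGFR1 arrays it lay below every control, and its log2 difference was -0.23 ± 0.05 (SE; adjusted p = 0.0155 by limma), so that its level fell by 14.8%. The second probe set, dimmer still, ran from 6.33 to 6.63 (median 6.52) after anti-FGFR1 and from 6.63 to 7.22 (median 6.90) in controls, a fall of 0.40 ± 0.08 (limma adjusted p = 0.0070). The Pdp1 call was kept without each of the 12 arrays and with the transcript-end ratio as covariate, and was lost with the endothelial mean (-0.32 ± 0.10, limma adjusted p = 0.148). Pdp2, the other phosphatase, differed by -0.01 ± 0.08, with a control array at 8.89 above all others.

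Pdk2, a kinase of the complex with broad tissue expression, ran from 11.45 to 11.68 (median 11.54) after anti-FGFR1 and from 11.12 to 11.45 (median 11.40) in controls. All 6 anti-FGFR1 arrays lay above all controls, although the lowest of them and the highest control both round to 11.45. The difference of 0.20 ± 0.06 did not pass (limma adjusted p = 0.0600). In fits with a marker mean as covariate it passed with that of macrophages (0.30, adjusted p = 0.0039 by limma) and that of muscle (0.22, 0.0402), but not with that of endothelium (0.06 ± 0.10, 0.868), and it passed in none of the 12 fits that left out 1 array. Control IgG replicate 6, at 11.12, was the lowest control, and without it the difference was 0.15.

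Pdk4, the kinase induced by fasting and by fatty acids through PPAR receptors, did not pass. It ran from 13.59 to 13.69 (median 13.62) after anti-FGFR1 and from 13.54 to 13.78 (median 13.64) in controls. The difference was -0.03 ± 0.04 (SE, limma adjusted p = 0.749), and its 95% interval of -0.13 to 0.07 corresponds to a change of -8.38% to 4.68% in its level. Pdk1, a target of hypoxia-inducible factor, varied widely, from 9.74 to 10.32 (median 9.98) after anti-FGFR1 and from 9.68 to 10.10 (median 9.87) in controls. It differed by 0.14 ± 0.09, and its 3 other probe sets were at 0.30, 0.11 and 0.08. Pdk3 was dim, from 7.44 to 7.70 (median 7.57) after anti-FGFR1 and from 7.24 to 7.83 (median 7.42) in controls, and differed by 0.08 ± 0.10.

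**Figure D2:**
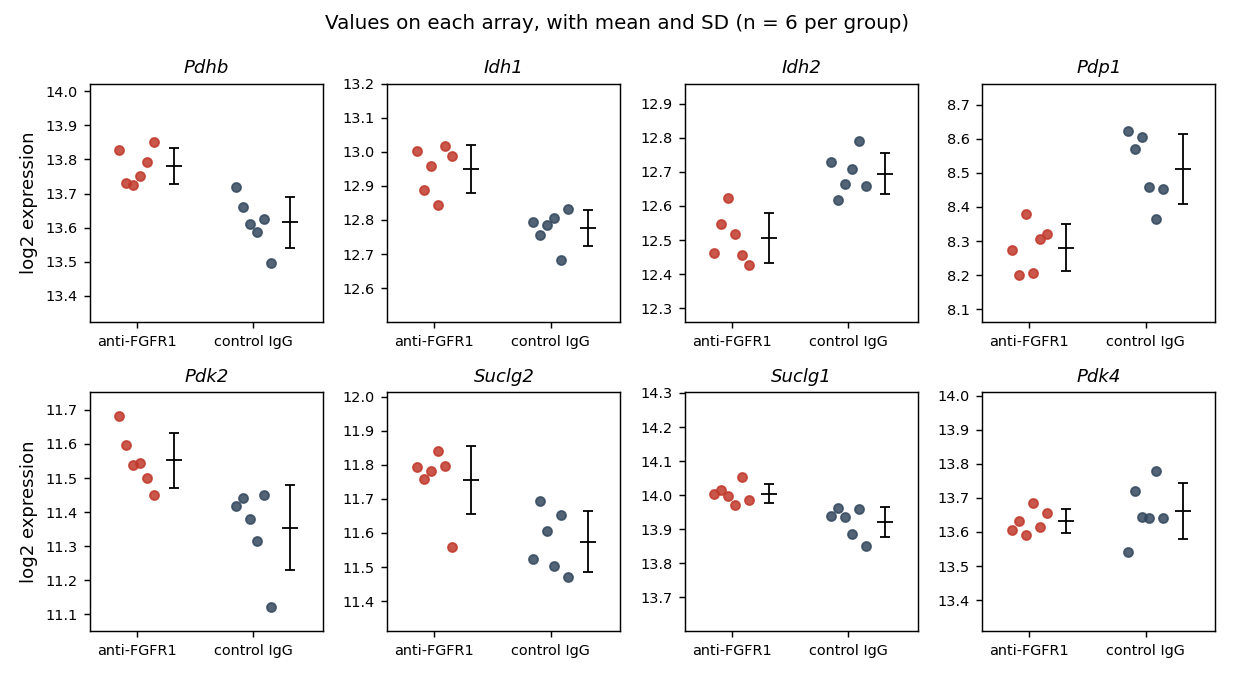
Log2 expression (vertical axes, each spanning the same height) of 8 members on every array, anti-FGFR1 on the left and control IgG on the right of each panel; the bars give mean and SD (n = 6 per group). The groups do not overlap in Pdhb, Idh1, Pdk2 and Suclg1, touch in Idh2 and Pdp1, and overlap widely in Pdk4, while in Suclg2 1 anti-FGFR1 array lies among the controls.

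The 2 NADP-dependent isocitrate dehydrogenases moved in opposite directions. Of 5 members 1 rose, 1 fell and 3 did not pass. Idh1, the cytosolic enzyme that makes NADPH, ran from 12.84 to 13.02 (median 12.97) after anti-FGFR1 and from 12.68 to 12.83 (median 12.79) in controls, without overlap. It was 12.8% higher, or 0.17 ± 0.04 on the log2 scale (SE; adjusted p = 0.0268 by limma), and its other probe set rose by 0.20 ± 0.05 (limma adjusted p = 0.0379), a call kept in 5 of 22 alternatives and in 2 of the 12 fits that left out 1 array. Idh2, the mitochondrial NADPH-making enzyme, ran from 12.43 to 12.62 (median 12.49) after anti-FGFR1 and from 12.62 to 12.79 (median 12.69) in controls. On 5 of 6 anti-FGFR1 arrays it lay below every control. The log2 difference was -0.19 ± 0.05 (SE; adjusted p = 0.0211 by limma), so that its level fell by 12.3%. A very dim second probe set, at about 5 on the log2 scale, was at 0.05.

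The Idh1 call was lost without control IgG replicate 2, 3 or 5 or anti-FGFR1 replicate 1, 3, 5 or 6 (0.16 to 0.18, adjusted p from 0.0504 to 0.0640). It was also lost in fits with the transcript-end ratio (0.15 ± 0.06, adjusted p = 0.199 by limma) or the macrophage mean (0.15, 0.0827). The Idh2 call was lost without anti-FGFR1 replicate 1 (-0.18, 0.0505) or 5 (-0.18, 0.0511), with the transcript-end ratio (-0.21 ± 0.06, 0.0799), and with the macrophage mean (-0.17, 0.0675). It was lost too when all probe sets of a gene were averaged (-0.07, 0.339). In the fit with the muscle mean both genes kept their calls.

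The NAD-linked enzyme of the cycle itself, built from Idh3a, Idh3b and Idh3g, did not pass on the brightest probe sets. Idh3a ran from 14.06 to 14.10 (median 14.08) after anti-FGFR1 and from 14.03 to 14.13 (median 14.07) in controls, a difference of 0.0058 ± 0.04. Its 3 other probe sets differed by more the dimmer they were: 0.13 ± 0.06, 0.17 ± 0.07 and 0.28 ± 0.09. None of these passed either (limma adjusted p = 0.228, 0.167 and 0.0635), and on the dimmest every anti-FGFR1 array except replicate 6 lay above all controls. Idh3b differed by 0.06 ± 0.03 with 5 anti-FGFR1 arrays of 6 higher than every control, and its dimmer probe sets by 0.13 and -0.09. Idh3g differed by 0.02 on each of its 2 probe sets.

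The remaining enzymes of the cycle leaned upward without passing the test. Of 10 members 0 rose and 0 fell (limma, 3 at an unadjusted p under 0.05). On the brightest probe sets all 10 had a fold change above 0, from 0.01 (Sucla2) to 0.18 (Suclg2). With all probe sets of a gene averaged, Cs (-0.03), Dlst (-0.02) and Sucla2 (-0.15) were below 0. Suclg2, the GDP-specific beta subunit of succinate-CoA ligase, ran from 11.56 to 11.84 (median 11.79) after anti-FGFR1 and from 11.47 to 11.70 (median 11.56) in controls. On 5 of 6 anti-FGFR1 arrays it lay above all controls, and the difference of 0.18 ± 0.06 did not pass (limma adjusted p = 0.0667). Anti-FGFR1 replicate 6 was the low array, and without it Suclg2 passed (0.22, limma adjusted p = 0.0177). Its second probe set was at 0.15. Sucla2, the ADP-specific beta subunit, ran from 13.82 to 13.93 (median 13.91) after anti-FGFR1 and from 13.82 to 14.03 (median 13.88) in controls, and differed by 0.01 ± 0.04.

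Suclg1, the alpha subunit shared by both ligases, ran from 13.97 to 14.05 (median 14.00) after anti-FGFR1 and from 13.85 to 13.96 (median 13.94) in controls. The groups did not overlap, yet the difference of 0.08 ± 0.04 did not pass (limma adjusted p = 0.217). Aco1, the cytosolic aconitase that also binds iron-responsive RNA elements, differed by 0.12 ± 0.05 (limma adjusted p = 0.152), and 5 anti-FGFR1 arrays of 6 exceeded every control. Dlst, the E2 subunit of 2-oxoglutarate dehydrogenase, differed by 0.08 ± 0.04, and Ogdh, its E1 subunit, by 0.04 ± 0.04. Citrate synthase (Cs, 0.02 ± 0.04), fumarase (Fh1, 0.07 ± 0.04) and the malate dehydrogenases of the cytosol (Mdh1, 0.03 ± 0.04) and the mitochondria (Mdh2, 0.06 ± 0.06) all overlapped between the groups. The 3 probe sets of Cs disagreed in sign, at 0.02, -0.05 and -0.06.

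The PEP carboxykinases, which turn oxaloacetate into phosphoenolpyruvate and in fat feed glycerol synthesis, did not pass. Of the 2 members 0 passed (limma, 0 at an unadjusted p under 0.05). Pck1, the cytosolic form, ran from 13.36 to 13.64 (median 13.55) after anti-FGFR1 and from 13.36 to 13.54 (median 13.46) in controls, a difference of 0.06 ± 0.05. Pck2, the mitochondrial form, differed by -0.04 ± 0.04.

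**Figure D3:**
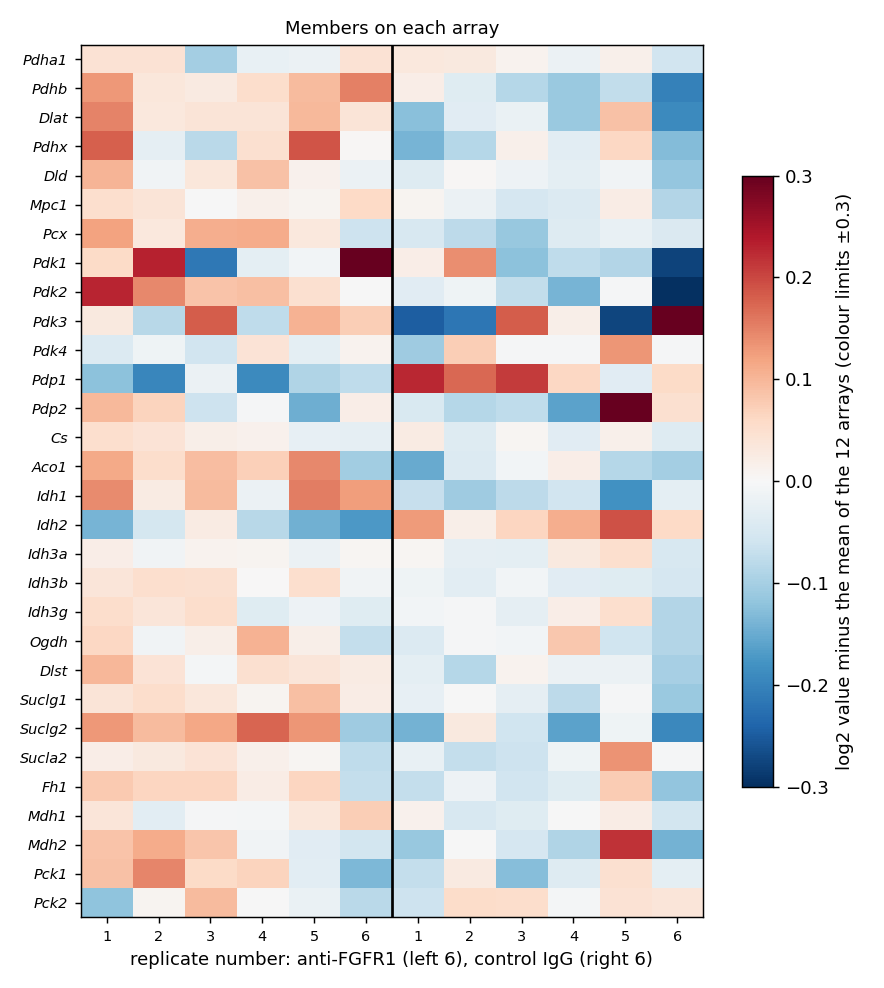
Each member's log2 value on each array minus its mean over the 12 arrays (colour, red above and blue below, limits at 0.3 either way), with anti-FGFR1 arrays on the left and control IgG arrays on the right. Control IgG replicate 6 is blue in most rows and anti-FGFR1 replicate 1 is red in many, while Idh2 and Pdp1 run the other way round.

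Some single arrays gave the lowest or highest value of their group in many members. The same count was not made over all genes, so it does not set the members apart. Anti-FGFR1 replicate 6 gave the lowest value of its group in 14 of 30 members and replicate 1 the highest in 10. Among controls, replicate 6 gave the lowest value in 17 members and replicate 5 the highest in 15. Control IgG replicate 6 was also the control array with the least skeletal muscle signal (9.40), and anti-FGFR1 replicate 5 the one in its group (6.79). Without both of these arrays 0 members rose and 1 fell, with Pdhb at 0.14 (limma adjusted p = 0.134), Idh1 at 0.17 (0.0688) and Idh2 at -0.19 (0.0655). The fold changes of Idh1 and Idh2 were as large without them.

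In the fit with the transcript-end ratio, Pdp1 was the only member called (-0.28 ± 0.07, adjusted p = 0.0360 by limma). With the endothelial mean, whose values do not overlap between the groups, 0 members were called, Pdhb being at 0.02 ± 0.07, Idh1 at 0.12 ± 0.08, Idh2 at -0.18 ± 0.09 and Pdp1 at -0.32 ± 0.10. Endothelial signal and treatment cannot be told apart in this fit, and the part of RNA quality in these results was not tested.

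**Figure D4:**
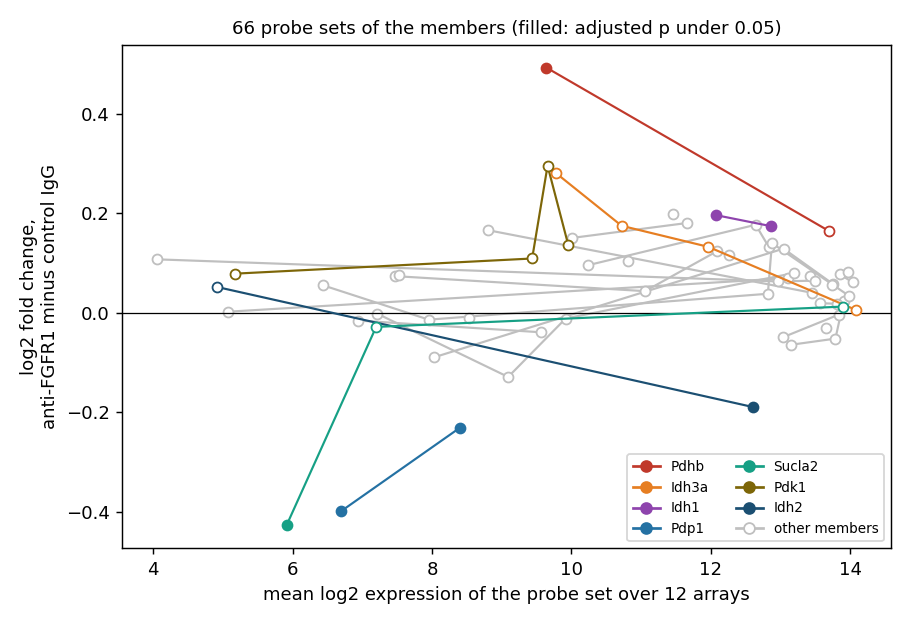
Log2 fold change (vertical axis) against mean log2 expression over the 12 arrays (horizontal axis) for all 66 probe sets of the members, lines joining probe sets of 1 gene and filled points marking those called. From right to left, toward dimmer probe sets, Pdhb and Idh3a climb while Pdp1 and Sucla2 descend.

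The choice of probe set mattered for several members. The 30 members had 66 probe sets, of which 3 were called higher (both of Idh1 and the dimmer of Pdhb) and 4 lower, where 2.15% and 4.75% of all 34945 probe sets with 1 gene were. In 21 members with several probe sets, the signs agreed in 15 and differed in 6. Among 15 members with at least 2 probe sets of mean 9 or above, the second-brightest had the larger absolute fold change in 11. The median absolute fold change was 0.0562 for the 23 member probe sets at 13 or above, 0.136 for the 18 between 10 and 13 and 0.0784 for the 25 dimmer than 10. Over all probe sets it was 0.0499, 0.0862 and 0.0730 in those ranges, so there was no steady rise toward dim probe sets. A dim probe set of Sucla2 ran from 5.58 to 5.87 (median 5.69) after anti-FGFR1 and from 5.74 to 6.48 (median 6.16) in controls, a log2 difference of -0.43 ± 0.10 (adjusted p = 0.0146 by limma) that the bright one did not show. It did not pass once the transcript-end ratio was a covariate (-0.36 ± 0.12, 0.164).

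Other genes that feed, drain or assemble the pathway were read from a list of 36, of which 32 were measured. Of these, 3 rose, 1 fell and 28 did not pass, and 21 had a fold change above 0 (65.6%, median 0.04). Of all genes 2.94% were called higher and 5.09% lower, and 53.4% had a fold change above 0 (median 0.0091). The 4 subunits of succinate dehydrogenase, the cycle enzyme that is also respiratory complex II, gave 0 calls (limma, 0 at an unadjusted p under 0.05): Sdha was at 0.01, Sdhb at 0.06, Sdhc at 0.04 and Sdhd at 0.07. Slc25a10, the mitochondrial dicarboxylate carrier that exchanges malate and succinate for phosphate, ran from 9.998 to 10.44 (median 10.14) after anti-FGFR1 and from 9.46 to 9.95 (median 9.75) in controls. The groups did not overlap, and it rose by 0.42 ± 0.08 (limma adjusted p = 0.0065), with its second probe set at 0.38. It was called under each of the 23 alternatives.

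Lipt1, a lipoyltransferase that attaches lipoate to E2 subunits of the 2-oxoacid dehydrogenases, ran from 9.46 to 9.70 (median 9.62) after anti-FGFR1 and from 9.22 to 9.31 (median 9.28) in controls. It rose by 0.32 ± 0.05 (limma adjusted p = 0.00063), although its 2 other probe sets, both under 5 on the log2 scale, were at -0.03 and 0.08, and it did not pass when probe sets were averaged (0.12, 0.250). D2hgdh, which oxidises D-2-hydroxyglutarate to 2-oxoglutarate, ran from 10.71 to 10.86 (median 10.79) after anti-FGFR1 and from 10.48 to 10.66 (median 10.61) in controls, and rose by 0.19 ± 0.05 (limma adjusted p = 0.0206). It did not pass with the transcript-end ratio (0.18, 0.146), with probe sets averaged (0.11, 0.171) or with the replicate number as a block (0.19, 0.0681), and its second probe set was at 0.04. Me3, a mitochondrial NADP-dependent malic enzyme, fell: it ran from 8.80 to 9.12 (median 8.95) after anti-FGFR1 and from 9.19 to 9.43 (median 9.31) in controls, with a log2 difference of -0.35 ± 0.06 (adjusted p = 0.0020 by limma) and no overlap. With the endothelial mean as covariate Lipt1 (0.23, adjusted p = 0.213 by limma), D2hgdh (0.16, 0.444) and Me3 (-0.46, 0.0558) did not pass. The cytosolic malic enzyme Me1 differed by -0.02 and Me2 by -0.17, neither passing; both are named after their values were seen.

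**Figure D5:**
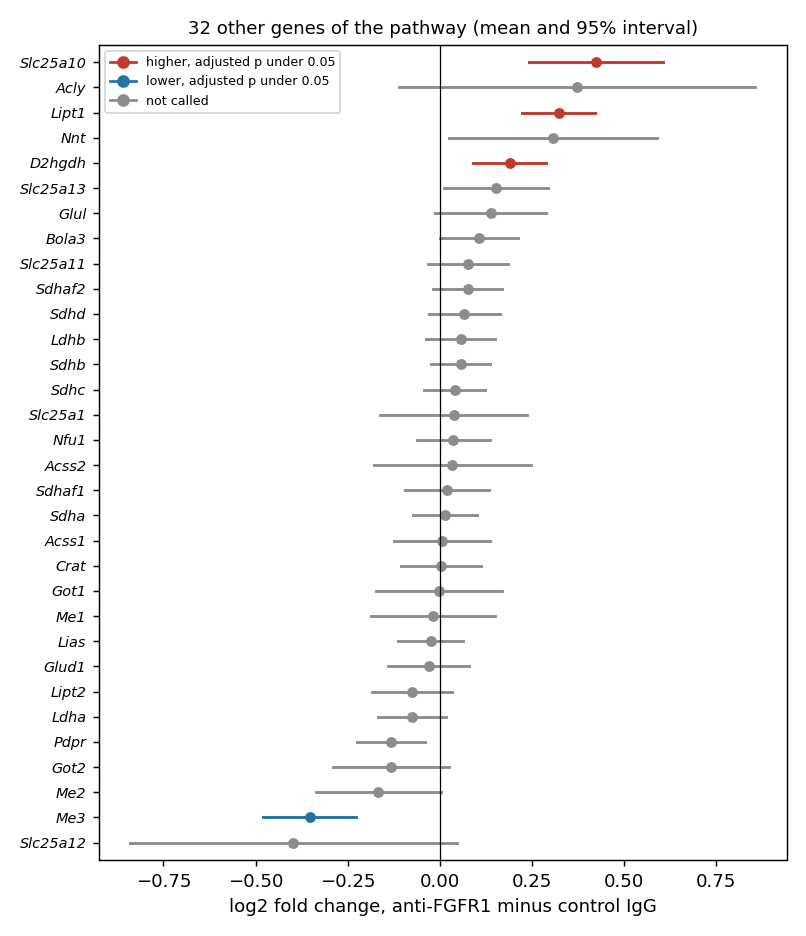
Log2 fold change (anti-FGFR1 minus control IgG, horizontal axis) with unadjusted 95% intervals for 32 other genes of the pathway, sorted by value. Slc25a10, Lipt1 and D2hgdh are the called rises and Me3 the called fall, and Acly and Slc25a12 have the widest intervals.

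Since Pdk4 and fatty acid use are controlled by PPAR receptors in many tissues, genes of mitochondrial fatty acid oxidation and other PPAR targets were set beside it. Of 13 genes measured, from 15 listed, 0 rose and 3 fell (limma, 4 at an unadjusted p under 0.05), with a median of -0.03. Of all genes 5.09% were called lower. The oxidation enzymes Acadl (0.01), Acadm (-0.03), Acadvl (0.06), Hadha (0.04), Hadhb (-0.03) and Cpt1a (0.06) did not pass on their brightest probe sets. A dimmer Acadl probe set rose (0.26, limma adjusted p = 0.0216). These enzymes are named after their values were seen. Angptl4, an inhibitor of lipoprotein lipase, ran from 11.66 to 11.88 (median 11.80) after anti-FGFR1 and from 12.06 to 12.39 (median 12.29) in controls. All 6 anti-FGFR1 arrays lay below all controls, with a log2 difference of -0.47 ± 0.06 (adjusted p = 0.00021 by limma). With the endothelial mean as covariate Angptl4 did not pass (-0.31 ± 0.09, 0.144), nor did Ucp3 (-0.56, 0.178) or Fabp3 (-0.14, 0.568). Ucp3 fell by 0.46 ± 0.10 (limma adjusted p = 0.0099) and Fabp3, a fatty acid binding protein, by 0.21 ± 0.05 (0.0212), neither passing with the transcript-end ratio (-0.39 ± 0.13 and -0.13 ± 0.06, adjusted p = 0.118 and 0.279). Dimmer probe sets of Angptl4 (-0.32, limma adjusted p = 0.136) and Fabp3 (-0.05, 0.823) did not pass, while that of Ucp3 did (-0.48, 0.0011). With probe sets averaged Fabp3 did not pass (-0.13, limma adjusted p = 0.190).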

How the data were processed

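RNA of 12 mice was measured on 12 one-colour biotin-labelled arrays. The deposited table holds log2 values for 45101 probe sets, and RMA and limma are named, without versions, per the submitters' processing notes. RMA corrects background, normalizes between arrays and summarises probes, which can understate changes of very dim and very bright probe sets. Values ran from 3.16 to 14.9, with array medians from 7.19 to 7.23; no detection calls are given. The number of arrays limits the precision.

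Gene names came from the platform table, in which 34945 probe sets had 1 gene, 932 several and 9211 no entry; identifiers of 34741 matched a GRCm38.p6 gene table. The brightest probe set per gene was kept, giving 18193 genes. No build is given for the values in the sources used here. The comparison used lmFit and eBayes of limma 3.58.1 under R 4.3.3 (two-sided, Benjamini-Hochberg over all genes), and the test was tested on simulated data. Each fold change is anti-FGFR1 over control IgG on the log2 scale. Other probe sets were adjusted over all 34945. All members are named; of the other lists, called genes, succinate dehydrogenase subunits and genes said to be chosen later. Members and lists were chosen with earlier results of these data known. Alternatives are given in the closing section. The main fit did not pair samples by replicate number, and the sample labels state no such pairing.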

Additional observations from a re-analysis of the deposited data

Results flagged for a closer look

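In 8 of 98 groups of 6 arrays the highest or lowest array stood far from the other 5; chance alone gives about 1 in 20. Anti-FGFR1 replicate 6 was low in Aco1 (11.98, next 12.14), Suclg2 (11.56, next 11.76) and Sucla2 (13.82, next 13.90). Among controls, replicate 6 was low in Dld (12.98, next 13.06) and replicate 5 high in Sucla2 (14.03, next 13.89). Anti-FGFR1 replicate 5 stood far below its group in the skeletal muscle mean (6.79, next 10.3). Control IgG replicate 1 stood apart in the transcript-end log2 ratio (0.221, next 0.163) and in the brown adipocyte marker mean (11.8, next 12.1).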

How the results depend on the processing

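Leaving out arrays, adding covariates and other settings moved the small counts, and the cause was not tested. A second quantile normalization added Suclg2 to the members called higher (0.21, limma adjusted p = 0.0289). It called 6 member probe sets higher, with Pdp2 at 0.021, Idh3a at -0.0020 and Sdha at -0.00049. The transcript-end ratio as covariate called 688 genes (281 higher, 407 lower), 0 members higher and 1 lower, and 1 member probe set higher and 2 lower, with Pdk4 at 0.033, Pdp2 at 0.0097 and Idh3g at -0.0021. With the muscle mean, Pdha1 was at 0.0050 and Pdp2 at 0.018. With the macrophage mean, 1413 genes, 1 member and 2 neighbours were lower and 5 member probe sets higher. In that fit Pdha1 was at 0.031, Pdk3 at -0.13 and Pdp2 at 0.043, and Fgfr1 was called lower (-0.33, limma adjusted p = 0.0399). With the endothelial mean, 212 genes were called (154 higher, 58 lower), 0 members and 0 member probe sets either way, and 1 neighbour higher and 0 lower. There Mpc1 was at -0.0093, Pdk1 at -0.087, Pdk4 at 0.026, Cs at -0.0037, Idh3a at -0.041, Idh3g at -0.043, Mdh1 at -0.039, Pck2 at 0.082, Sdhd at -0.036 and Fgfr1 at 0.24. The mean of all probe sets gave 1 member lower and 1 neighbour higher, with Cs at -0.031, Dlst at -0.016 and Sucla2 at -0.15. Without dim genes 4 members were higher (Pdk2 and Suclg2 added), 2 neighbours lower, and 7 member probe sets higher and 2 lower. With a mean-variance trend 4 members were higher (the same 4), 2 neighbours lower and 8 member probe sets higher. Without the 2 arrays lowest in muscle markers, a choice made after seeing the data, 0 members were higher and 1 lower, 1 member probe set higher and 2 lower, with Pdp2 at 0.026 and Sdha at -0.00015. Centring on the median changed no member's call.

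Leaving out 1 array at a time gave 1043 to 1698 genes called, 0 to 2 members higher, 1 to 2 lower, 1 to 4 member probe sets higher and 3 to 4 lower, while 3 neighbours stayed higher and 1 lower each time. In these fits Pdha1 ran from -0.016 to 0.016, Pdp2 from -0.044 to 0.059, Sucla2 from -0.00088 to 0.040, Idh3a from -0.0034 to 0.016 and Sdha from -0.0014 to 0.028. The transcript-end difference of 0.0417 ran from 0.0360 to 0.0537 (exact permutation p up to 0.0736), lost its call without any array other than control IgG replicate 1 and anti-FGFR1 replicates 4 and 6, and was 0.0142 from Gapdh alone (p = 0.506).

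Deviations of same-numbered arrays correlated between -0.29 and 0.33, which does not settle whether the numbers pair the samples. With the replicate block 1337 genes were called, 1 member higher (Pdk2) and 1 lower (Pdp1), with Pdhb, Idh1, Idh2 and the neighbour D2hgdh not passing, and 2 of 6 anti-FGFR1 arrays correlated best with the control of their own number.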

Other observations

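Some genes of cytosolic acetyl-CoA supply spread widely among the anti-FGFR1 arrays. Acly, which splits exported citrate, read 13.13, 13.32, 12.10, 12.11, 12.90 and 13.58 on anti-FGFR1 replicates 1 to 6, and from 12.10 to 12.72 on the control arrays. On 4 of 6 anti-FGFR1 arrays it lay above every control, while replicates 3 and 4 lay among the lowest values, and the difference of 0.37 ± 0.23 did not pass (limma adjusted p = 0.357). The citrate carrier Slc25a1 was likewise lowest of its group on replicates 3 and 4 (11.56 and 11.73), as was the acetyl-CoA synthetase Acss2 (10.92 and 10.91). The dip was not particular to these genes: Me1 (12.10 and 12.12) and the member Pdk1 (9.74 and 9.93) were also lowest of that group on replicates 3 and 4. All of these except Pdk1 are named after their values were seen, and the shared order was not tested.

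Slc25a12, an aspartate-glutamate carrier abundant in muscle, ran from 7.57 to 8.79 after anti-FGFR1 and from 8.16 to 9.10 in controls. In each group it was lowest on the array with the least skeletal muscle signal.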
